A study of Mus musculus with 2 samples.

Results

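Alveolar epithelial type II (AE2) cells of old and young mice were compared 24 h after lipopolysaccharide (LPS), using single-cell RNA sequencing of EpCAM-sorted lung cells. AE2 cells make surfactant and store it in lamellar bodies, and they can renew the alveolar epithelium. The cells were chosen on measured values. A cell had to have at least 500 detected genes and at most 20% mitochondrial UMIs, where a UMI is a unique molecular identifier that marks 1 captured RNA molecule. Sftpc, the surfactant protein C gene, had to give at least 1% of its UMIs, and at least 3 of the 6 genes Lamp3, Abca3, Slc34a2, Napsa, Lpcat1 and Etv5 had to be detected. Cells with a UMI of the leukocyte gene Ptprc, with 3 or more UMIs of the cilia genes Ccdc153 and Tmem212, or with 10% or more of their UMIs from the club cell gene Scgb1a1 were left out. The rule took 4155 AE2 cells from the 7010 barcodes of the LPS libraries, which belong to a series of 14048 barcodes.

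All mice were C57BL/6JRj. Young mice were aged 3 months and old mice 18 months, and each age received either saline (control) or LPS at 2.5 mg per kg body weight. Lungs were lavaged and digested with dispase, live EpCAM+ cells were sorted, and the 4 groups of a replicate experiment were given different hashtag antibodies, pooled in equal cell numbers and loaded on 1 droplet lane. The whole experiment was done 2 times, which gives 2 libraries per group, 1 on each lane. The number of mice behind a library is not given in the sources used here.

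LPS is a component of the outer membrane of gram-negative bacteria, sensed through CD14 and the receptor TLR4. It drives NF-kappaB, which induces chemokines such as Cxcl1 that call in neutrophils, and it also leads to the release of interferons. Interferons act through STAT and IRF transcription factors and induce large GTPases that attack membranes around pathogens, as well as the machinery that loads peptides on MHC class I. In the lung epithelium both programmes are part of the first response to bacterial products.

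The LPS libraries held 782 and 929 young AE2 cells and 1216 and 1228 old AE2 cells, the first number of each pair being lane 1. Their median UMI count per cell was 7576 and 8314 in young and 9052 and 9019 in old. The summed AE2 UMIs ranged from 4197306 to 11063050 over the 8 libraries, and each library's 10 most abundant genes took 31.1% to 40.6% of them. Sftpc gave a median of 3.31% and 4.62% of a young cell's UMIs after LPS and 3.96% and 4.91% of an old cell's, against 21.9% to 25.6% in the controls. After LPS the Sftpc minimum therefore took cells out: without it the rule would have held 1008 and 1106 young and 1273 and 1417 old cells. Just below it, from 0.9% to 1%, lay 31 and 25 young and 4 and 30 old cells, and just above it, from 1% to 1.1%, lay 18 and 21 young and 12 and 20 old cells. The other marker genes of the rule are described without a test: Lamp3, a lamellar body membrane protein, was at 1222 and 1183 CPM in young and 999 and 1273 CPM in old cells after LPS. Abca3, the lamellar body lipid transporter, was at 450 and 498 CPM in young and 300 and 485 CPM in old. CPM stands for counts per 1000000 UMIs of a library's summed AE2 cells, after TMM scaling. In every deposited table a single hashtag dominated 100% of the barcodes, no AE2 barcode was shared between libraries of 1 lane, and 1 was shared between the 2 old LPS libraries.

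Genes of the interferon response were lower, and neutrophil chemokines and several cytokines higher, in old than in young AE2 cells after LPS. Igtp, Gbp2 and Irgm1, interferon-inducible GTPases, were 3.83-fold, 3.26-fold and 3.08-fold lower in old. Cxcl3 and Cxcl1, ligands of the neutrophil receptor CXCR2, were 3.28-fold and 2.90-fold higher. Of 11347 genes tested, 136 (1.20%) were higher and 175 (1.54%) lower in old cells, 311 (2.74%) in all, at an adjusted p under 0.05 (edgeR quasi-likelihood test, Benjamini-Hochberg). More than 2-fold differences were seen for 52 of the higher and 51 of the lower genes. The median log2 difference over all genes tested was 0.01. In these sums fewer cells expressing a gene and less RNA per cell cannot be told apart, so shares of cells follow further on. The 2 old LPS libraries did not overlap the 2 young ones for any of the 311 genes, but this was also so for 5068 (44.7%) of all genes tested. With 2 libraries per group, how many genes passed depended on single libraries: 20 higher and 72 lower without young LPS 2, 41 and 45 without young LPS 1, 860 and 992 without old LPS 2, and 153 and 193 without old LPS 1. Without any 1 of the control libraries, which lend their spread to the fit, 73 to 80 were higher and 105 to 109 lower. The sign of none of the 311 genes turned under any of the 18 alternative settings that tested it. As the libraries of the 2 groups did not overlap for these genes, leaving out 1 library could hardly turn a sign. The unturned signs are therefore no separate support.

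**Figure D1:**
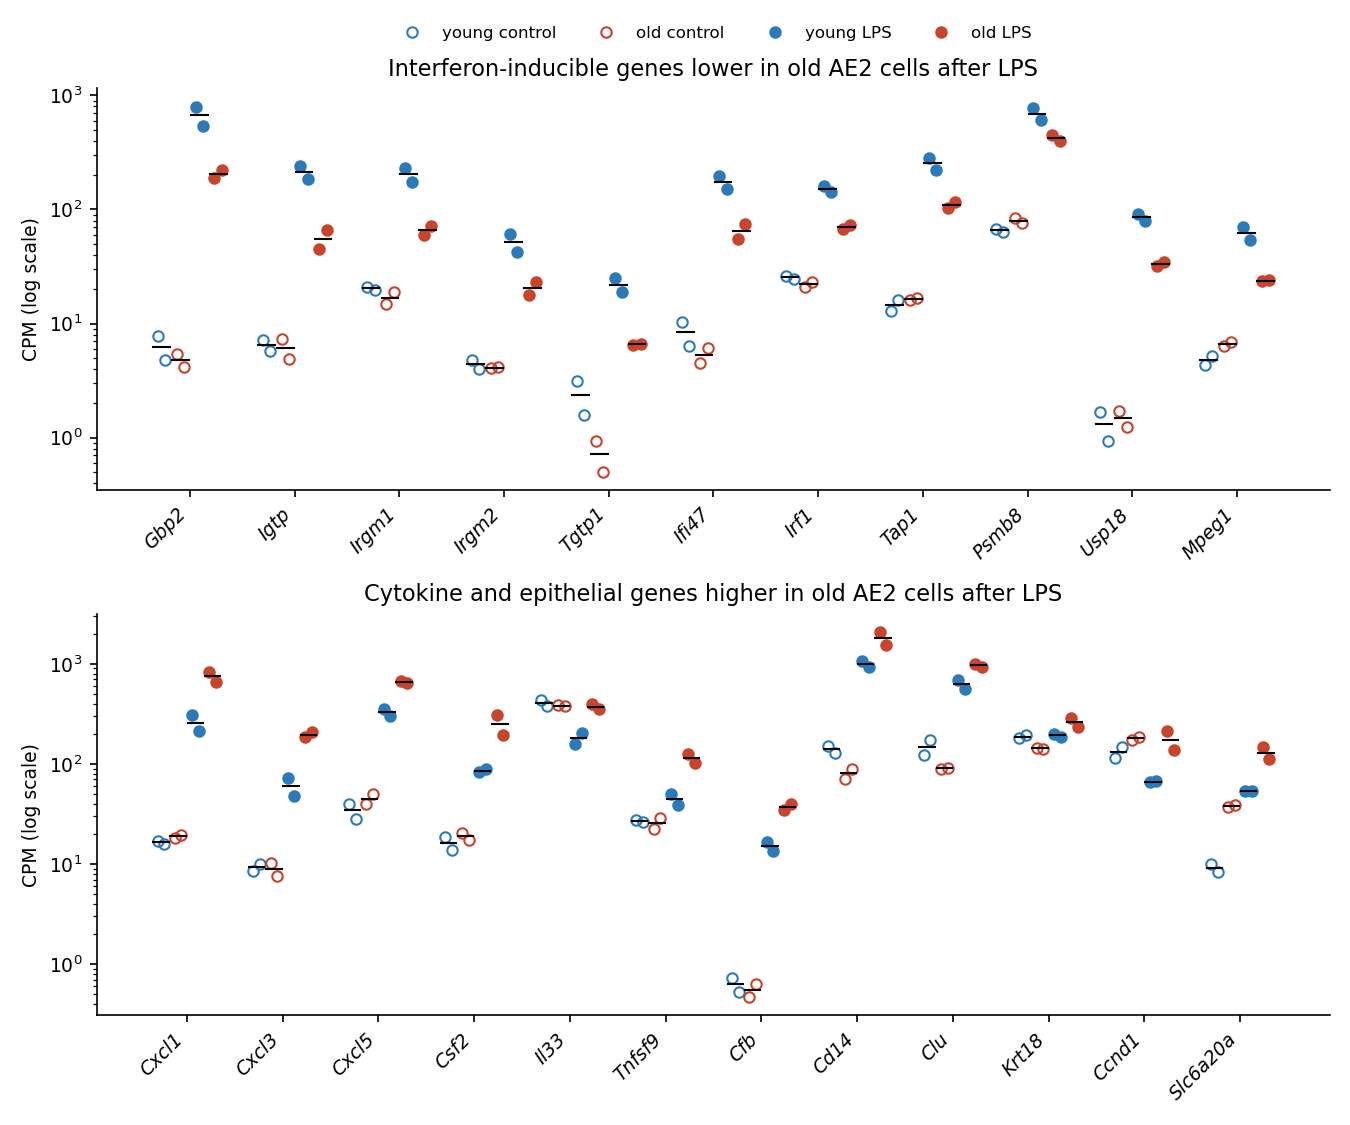
Normalised expression (CPM, log scale) of 11 genes lower and 12 genes higher in old AE2 cells after LPS; each point is 1 library, filled for LPS and open for control, blue for young and red for old, and each black line is the mean of 2 libraries. The filled red points lie below the filled blue ones in the upper panel and above them in the lower panel, for example Igtp at 45.0 and 66.0 against 241 and 185 CPM.

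The interferon-inducible GTPases had the lowest median differences of the lists examined. They fall into guanylate-binding proteins (GBPs), which coat bacteria and vacuoles, and immunity-related GTPases (IRGs), which disrupt or regulate such vacuoles. Igtp (Irgm3), a regulatory IRG, was at 241 and 185 CPM in young and 45.0 and 66.0 CPM in old cells after LPS. In controls it was at 7.23 and 5.71 CPM in young and 7.32 and 4.89 CPM in old. All 4 LPS libraries were thus far above the controls, and both old ones were far below both young ones, with a log2 difference of -1.94 ± 0.21 (SE, adjusted p = 0.00473). Irgm1, a regulator of autophagy and of the other IRGs, stood at 232 and 173 CPM in young and 59.4 and 71.9 CPM in old, a log2 difference of -1.62 ± 0.15 (adjusted p = 7.51e-05). Gbp2, the most abundant GBP in these cells, stood at 797 and 539 CPM in young and 188 and 221 CPM in old (log2 difference -1.71 ± 0.21, adjusted p = 0.00881). Leaving out old LPS 1 or old LPS 2 ended the call of Gbp2 (adjusted p = 0.181 and 0.0566), while its log2 difference stayed at -1.59 and -1.83.

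Counted by list, 5 of 8 GBP genes tested and 4 of 6 IRG genes tested passed the test, all lower in old. Every one of the 14 had a negative log2 difference, with a median of -1.58 for the GBPs and -1.68 for the IRGs. The called GBPs were Gbp2, Gbp3, Gbp6, Gbp7 and Gbp9 and the called IRGs Irgm1, Irgm2, Igtp and Tgtp1. Gbp6 had the lowest value of these at -2.05, on a low level of 13.6 and 7.32 CPM in young and 1.80 and 3.11 CPM in old. Tgtp1, an effector IRG, was at 24.9 and 19.0 CPM in young and 6.54 and 6.59 CPM in old. In controls it was at 3.13 and 1.59 CPM in young and 0.934 and 0.502 CPM in old. Its log2 difference there was -1.61 (not called), with an interaction of -0.11 ± 0.72 (SE). The median log2 difference in controls was -0.53 for the GBPs and -0.16 for the IRGs, and no member was called there. Ifi47, another IRG-like GTPase kept on the list of interferon-stimulated genes, was at 197 and 151 CPM in young and 55.3 and 74.5 CPM in old (log2 difference -1.42, adjusted p = 0.00999). Between 2 and 7 GBPs were called over the alternative settings, 2 with the 4 LPS libraries fitted alone and 3 without young LPS 1 or without old LPS 1. Gbp3 missed the threshold without old LPS 1 (adjusted p = 0.278), old LPS 2 (0.0976), old control 1 (0.0789) or old control 2 (0.0774), Gbp7 without old LPS 1 (0.125), and Gbp6 (0.0964) and Gbp9 (0.16) without young LPS 1. The count of IRGs stayed at 4 or 5 of the 5 or 6 tested. Several of these genes have near-identical neighbours (Tgtp1 and Tgtp2, Gbp6 and Gbp10), and Igtp and Irgm2 overlap on 1 strand, so the reads of single members may be split or shared.

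In the genome the called GTPases lie in clusters. On GRCm38, Gbp7 (142530342 to 142550149), Gbp3 (142560026 to 142573209) and Gbp2 (142620602 to 142638008) lie side by side on chromosome 3. Gbp9 (105077630 to 105139539) and Gbp6 (105270702 to 105293698) are on chromosome 5. Irgm1 (48861968 to 48871683), Tgtp1 (48985327 to 48994172) and Ifi47 (49076587 to 49096974) share a stretch of chromosome 11, and Igtp (58199556 to 58207591) and Irgm2 (58199618 to 58222782) share another. All are protein-coding genes in GENCODE M21.

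Their promoters are shown because those found in the reference table share a short sequence. RefSeq promoter entries, from 250 bases before to 50 after a transcript start, were matched by symbol for 7 of the 9 called GBP and IRG genes and for 69 of the 99 genes named here. The interferon-stimulated response element was searched as TTCNNTTTC on both strands, and it occurs in all 7, against 2812 (8.56%) of all 32851 promoters in the table. The gamma-activated site TTCNNNGAA was found in 4 of the 7 (Gbp7, Irgm2, Igtp and Tgtp1), against 8.30% of all promoters. The other genes called lower on the lists of interferon, IRF, STAT and class I genes did not share these elements to the same extent. With 13 of 20 matched, the interferon element occurs in 2 (Stat2 and H2-T23) and the gamma-activated site in 2 (Irf1 and Psmb8). The 30 bases around an element of each gene read as below, written so that the element, in capitals, runs from TTC to TTTC. For Gbp3 and Irgm1, which hold 2 each, 1 is shown.
Gbp2, chr3:142620595-142620624, plus strand: ctcttttagtTTCACTTTCactgtcttaag
Gbp3, chr3:142559990-142560019, plus strand: aggacacagtTTCAGTTTCtatttcccaga
Gbp7, chr3:142530274-142530303, plus strand: tgtgtgcagtTTCAGTTTCagttctccatc
Igtp, chr11:58199512-58199541, minus strand: cccgaacagctTTCAGTTTCagttcctaga
Irgm1, chr11:48871425-48871454, plus strand: tgagaatcagtTTCGGTTTCtatttcttga
Irgm2, chr11:58214903-58214932, minus strand: cccgaacagctTTCAGTTTCagttcctgga
Tgtp1, chr11:48992304-48992333, plus strand: gtcaggtaggtTTCAGTTTCgattcctgga
The elements shown for Gbp3, Gbp7, Igtp, Irgm2 and Tgtp1 read TTCAGTTTC. The windows of Igtp and Irgm2 are nearly the same, and the genes lie in clusters, so the 7 are not separate draws from all promoters. A match is a description of the letters and no evidence that a factor binds there.

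On the list of interferon-regulatory and STAT factors, which also holds the MHC gene activators Nlrc5 and Ciita, 6 of 16 were lower in old cells. None was higher, and the median log2 difference was -0.50. Irf1, an early interferon-induced activator, was at 162 and 141 CPM in young and 66.9 and 72.7 CPM in old after LPS, a log2 difference of -1.11 ± 0.11 (adjusted p = 5.32e-05). Each young library lay well above both old ones. Stat2 (-0.91), Irf7 (-0.65), the class II activator Ciita (-1.03) and the class I activator Nlrc5 (-0.98) were also called. The count was 3 of 17 without young LPS 1, where Irf7 (adjusted p = 0.243), Nlrc5 (0.0876) and Ciita (0.0578) missed the threshold; Nlrc5 also missed it without young LPS 2 (0.0975), and Irf7 without young control 1 or 2 (0.0535 and 0.0546). None of 9 interferon receptor and receptor kinase genes was called after LPS (median log2 difference 0.14), which by itself does not show that they were equal.

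The broader list of interferon-stimulated genes was less marked: 7 of 34 were lower, 0 were higher, and the median log2 difference was -0.44 with 30 of 34 negative. Usp18, which removes ISG15 from proteins and damps the type I interferon receptor, was at 92.1 and 79.2 CPM in young and 31.8 and 34.3 CPM in old (log2 difference -1.37 ± 0.12, adjusted p = 3.08e-05). Zbp1, a sensor of Z-form nucleic acids, was at 202 and 147 CPM in young and 107 and 99.4 CPM in old (-0.75). Rtp4 (-0.65) was also called. With the lane as a replicate block 13 of 34 were lower. With the 4 LPS libraries fitted alone 2 of 34 were, with Sftpc at 3% or more 2 of 32, and with cells thinned to 2000 UMIs 2 of 29. Leaving out young LPS 1 left 2 of 34, without Zbp1 (adjusted p = 0.105) and Rtp4 (0.315), leaving out old control 1 or old control 2 left 4, without Rtp4 (0.0647 and 0.0625), and leaving out old LPS 1 gave 12. Rtp4 also missed the threshold without young LPS 2 (0.136). Mpeg1, which encodes the pore-forming protein perforin-2, was at 70.6 and 54.1 CPM in young and 23.5 and 23.9 CPM in old, a log2 difference of -1.39 ± 0.13 (adjusted p = 5.32e-05).

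Peptide loading on MHC class I followed the same direction. Of 12 loading and immunoproteasome genes, 5 were lower in old, 0 were higher, and the median log2 difference was -0.35. The count of lower genes was 1 with Sftpc at 3% or more or with the 4 LPS libraries fitted alone, and 3 with cells thinned to 2000 UMIs. Tap1, which pumps peptides into the endoplasmic reticulum, was at 284 and 222 CPM in young and 102 and 116 CPM in old (log2 difference -1.21 ± 0.12, adjusted p = 7.51e-05). The immunoproteasome subunit Psmb8 was at 770 and 607 CPM in young and 454 and 398 CPM in old (-0.69, adjusted p = 0.00458), and Psmb9 showed -0.67. Tapbp (-0.54) and Tap2 (-0.53) were lower too. Without young LPS 1 the count was 1 of 12, where Psmb8 (adjusted p = 0.102), Psmb9 (0.17), Tapbp (0.121) and Tap2 (0.284) missed the threshold; Tap2 also missed it without young control 1 or 2 (0.0552 and 0.0571). Tap1 (34187553 to 34197225), Psmb9 (34181987 to 34187764) and Psmb8 (34197721 to 34201454) adjoin each other on chromosome 17, and the annotated ends of Tap1 and Psmb9 overlap on opposite strands. Among 10 class I chain genes H2-T23 (-0.65) and H2-Q2 (-0.55) were lower, with paralogs that may share their reads. H2-T23 was called only with all libraries or without young LPS 2, and H2-Q2 only with all libraries or without old LPS 1 or old LPS 2, among the fits that left out a library (adjusted p up to 0.355 and 0.253 in the others). B2m, the light chain, did not pass at 1018 and 803 CPM in young against 852 and 959 CPM in old. None of 9 MHC class II genes (median -0.08) and none of 27 constitutive proteasome genes (median 0.13) was called.

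**Figure D2:**
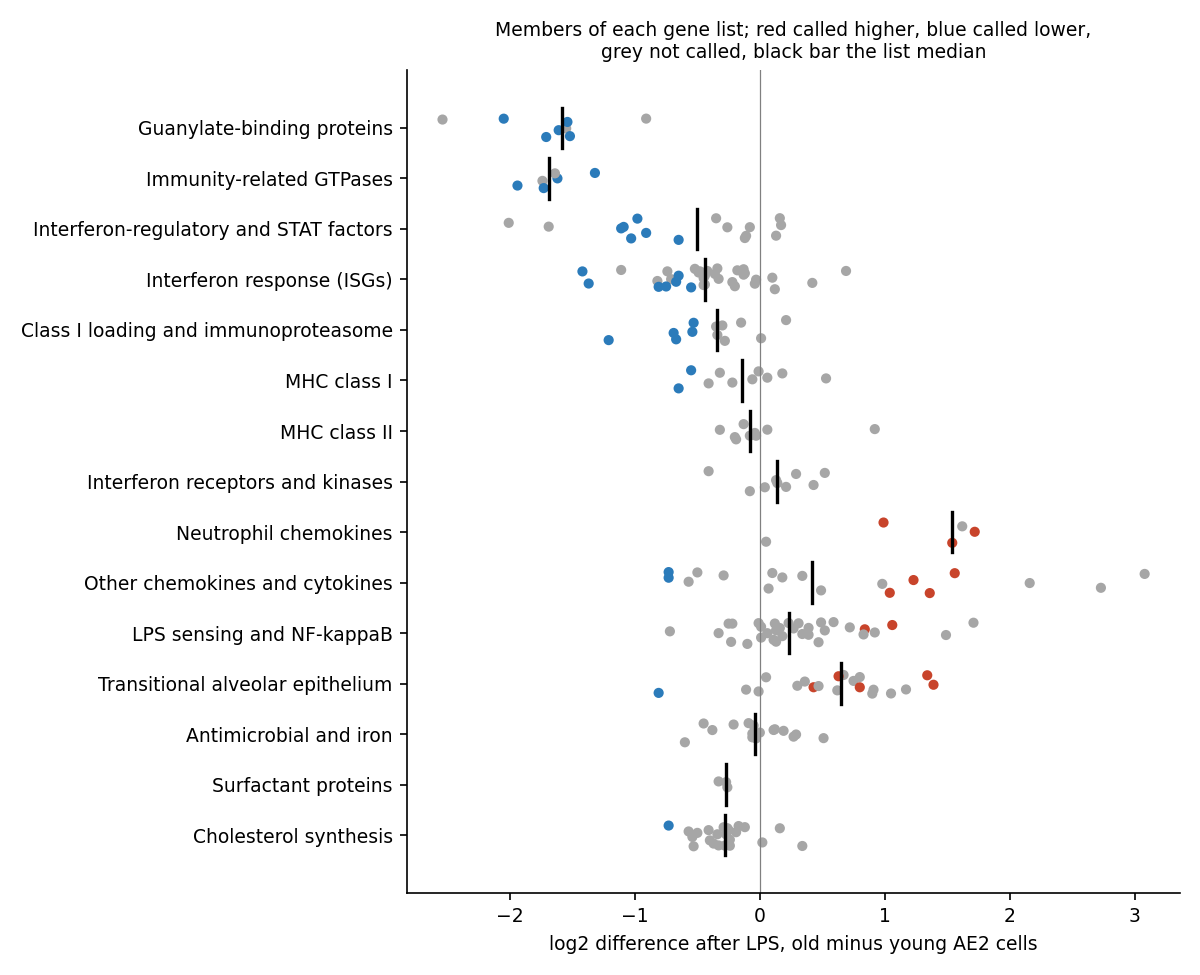
Log2 difference after LPS (old minus young AE2 cells, horizontal axis) of every tested member of 15 gene lists; each point is a gene, red if called higher, blue if called lower, grey if not called, and the black bar is the list median. GBPs and IRGs lie wholly below 0 with medians of -1.58 and -1.68, and the neutrophil chemokines lie above 0 with a median of 1.54.

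Chemokines that attract neutrophils moved the other way. Of 5 tested, 3 were higher in old cells and 0 lower, with a median log2 difference of 1.54 (3 higher and 1 lower without old LPS 2). Cxcl1 was at 306 and 212 CPM in young and 836 and 664 CPM in old cells after LPS, and between 15.9 and 19.6 CPM in all control libraries. Its log2 difference after LPS was 1.54 ± 0.17 (adjusted p = 0.00133). Cxcl3 was at 72.1 and 47.7 CPM in young and 184 and 207 CPM in old (1.72 ± 0.18, adjusted p = 0.00106). Cxcl5 was at 355 and 305 CPM in young and 672 and 639 CPM in old (0.99 ± 0.14, adjusted p = 0.00253). The lowest old library exceeded the highest young library by far in each. Cxcl2 was at 505 and 357 CPM in young and 1749 and 892 CPM in old; it missed the threshold (adjusted p = 0.217) and passed it only with the lane as a replicate block (adjusted p = 0.0349), among the settings run. Cells under the Sftpc minimum bore on these genes: with no minimum Cxcl1 stayed called (log2 difference 1.27), while Cxcl3 (1.49, adjusted p = 0.143) and Cxcl5 (0.76, adjusted p = 0.179) did not. Leaving out old LPS 1 also ended the call of Cxcl5 (adjusted p = 0.065).

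Cxcl5, Cxcl3 and Cxcl1 stand in 1 stretch of chromosome 5: Cxcl5 from 90759360 to 90761624, Cxcl3 from 90786103 to 90789600 and Cxcl1 from 90891241 to 90893115 (GRCm38). The promoters of Cxcl1 and Cxcl3 are shown because, on the lists of neutrophil chemokines, acute phase proteins and interferon genes, they were the most abundant genes called higher in old that had an entry in the RefSeq table. Both hold the NF-kappaB site, searched by name with its usual degenerate form on both strands and printed in capitals. It occurs in 2779 (8.46%) of all 32851 promoters. Among the chemokine and cytokine genes called higher, 5 of 7 had an entry, and the site was found in these 2 and not in the windows of Il33, Csf2 or Tnf. The window of Csf2 holds an interferon element. In each gene 2 matches overlap by all but 1 base.
Cxcl1, chr5:90890995-90891294, plus strand: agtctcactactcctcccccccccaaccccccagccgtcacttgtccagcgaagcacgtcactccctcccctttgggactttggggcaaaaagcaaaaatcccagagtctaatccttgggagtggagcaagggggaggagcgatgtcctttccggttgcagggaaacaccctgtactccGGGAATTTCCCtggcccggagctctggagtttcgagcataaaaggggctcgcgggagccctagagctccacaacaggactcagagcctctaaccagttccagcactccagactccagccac
Cxcl3, chr5:90785851-90786150, plus strand: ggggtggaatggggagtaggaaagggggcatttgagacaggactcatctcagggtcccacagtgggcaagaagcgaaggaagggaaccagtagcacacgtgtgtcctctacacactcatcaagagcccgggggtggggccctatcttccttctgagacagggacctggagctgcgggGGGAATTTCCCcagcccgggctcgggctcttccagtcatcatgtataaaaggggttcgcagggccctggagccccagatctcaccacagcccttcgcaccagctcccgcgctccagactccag
No interferon element or gamma-activated site was found in these 2 windows. The same search of Gbp2, Orm2 and Ifi47, the most abundant genes called lower on the same lists with an entry, found the interferon element and an NF-kappaB site in Gbp2, and none of the 3 motifs in Orm2 or Ifi47. An absent match says only that these letters are not in that window.

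Other cytokine genes were split: 4 of 18 were higher in old and 2 lower, with a median log2 difference of 0.41. Csf2, which encodes the growth factor GM-CSF that alveolar macrophages depend on, was at 82.6 and 88.1 CPM in young and 308 and 196 CPM in old after LPS (1.56 ± 0.21, adjusted p = 0.0121). Without young LPS 1 or young LPS 2 its adjusted p was 0.108 and 0.106. Il33, an alarmin stored in the nucleus, was at 158 and 205 CPM in young and 397 and 353 CPM in old (1.04 ± 0.12, adjusted p = 0.000281). In control cells Il33 was at 431 and 378 CPM in young and 387 and 381 CPM in old, so the old libraries after LPS lay at the control level and the young ones below it. Tnfsf9, the ligand of the T cell costimulator 4-1BB, was at 50.2 and 39.2 CPM in young and 126 and 103 CPM in old (1.36 ± 0.14, adjusted p = 0.000163). Tnf itself was rare, at 5.09 and 2.35 CPM in young and 9.76 and 7.23 CPM in old, and it kept its call in 6 of the 17 alternative settings that tested it, missing it without old LPS 1 (adjusted p = 0.131), young LPS 2 (0.477) or any control library (0.0833 to 0.0876). The 2 lower genes included Cxcl17, a mucosal chemokine, at 215 and 196 CPM in young and 128 and 120 CPM in old (-0.73). In controls it was lower in old too, at 43.6 and 62.7 CPM in young and 28.2 and 33.0 CPM in old. That log2 difference was -0.81 (edgeR, adjusted p = 0.0376), with an interaction of 0.08. The call of Cxcl17 after LPS was lost without young LPS 1 or 2, and its log2 difference ran from -0.90 to -0.60 over the alternative settings.

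Among 33 genes of LPS sensing and NF-kappaB signalling, 2 were higher in old, 0 lower, and the median log2 difference was 0.23. Cd14, the LPS co-receptor, was at 1077 and 941 CPM in young and 2079 and 1539 CPM in old (0.84 ± 0.16, adjusted p = 0.0235). It lost its call without either young LPS library (adjusted p = 0.0936 and 0.197). Tnfrsf1b, a TNF receptor gene, showed 1.06 and missed the threshold without young LPS 1 (0.135), young LPS 2 (0.223), old LPS 1 (0.0655) or old control 2 (0.0504). Nfkbia, the NF-kappaB inhibitor that NF-kappaB itself induces, was at 474 and 409 CPM in young and 886 and 571 CPM in old and missed the threshold (adjusted p = 0.0895), passing with the lane as a replicate block (adjusted p = 0.0143), with DESeq2 (0.0114), with no filter on low counts (7.25e-10), and without old LPS 1 (0.0252) or old LPS 2 (2.61e-08). Cfb, complement factor B, was at 16.6 and 13.5 CPM in young and 35.0 and 39.4 CPM in old (1.32 ± 0.15, adjusted p = 0.000144). The acute phase gene Orm2 was lower at -0.63, and its near-identical neighbour Orm1 may share its reads. Serping1, the C1 inhibitor, was lower at -2.97 on 8.65 and 3.53 CPM in young and 0.569 and 0.915 CPM in old. Orm2 lost its call without young LPS 2 (adjusted p = 0.091) and Serping1 without young LPS 1 (0.108). None of 16 antimicrobial and iron-binding genes was called. Lcn2, the siderophore-binding lipocalin 2, took 83577 and 77506 CPM in young and 90605 and 60621 CPM in old, so the old range held the young one; without old LPS 1 it was called lower (-0.41, adjusted p = 0.0154).

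Feedback inhibitors of cytokine signalling changed in both directions. Socs1, an inhibitor of interferon signalling, was at 53.9 and 32.2 CPM in young and 8.34 and 14.5 CPM in old (-1.90 ± 0.33, adjusted p = 0.0386), and with the replicate block it missed the threshold (adjusted p = 0.0696). It also missed it without old LPS 1 (0.0962) or without any 1 control library (0.0612 to 0.0876). Cd274, which encodes PD-L1, was at 14.4 and 10.2 CPM in young and 2.84 and 4.76 CPM in old (-1.67). Socs3, an inhibitor of signalling by the IL-6 family, was at 67.7 and 74.8 CPM in young and 108 and 92.4 CPM in old (0.49, adjusted p = 0.0389). Ptpn2, a phosphatase acting on JAK and STAT proteins, was also higher (0.55). In all, 2 of 14 such genes were higher and 2 lower. Lgals9, the galectin-9 gene, was lower (-0.53). Without young LPS 1, Cd274 (adjusted p = 0.105), Lgals9 (0.179), Socs3 (0.315) and Ptpn2 (0.102) missed the threshold. Socs3 and Ptpn2 kept their calls only without old LPS 2 among the fits that left out a library (adjusted p up to 0.368 in the others).

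**Figure D3:**
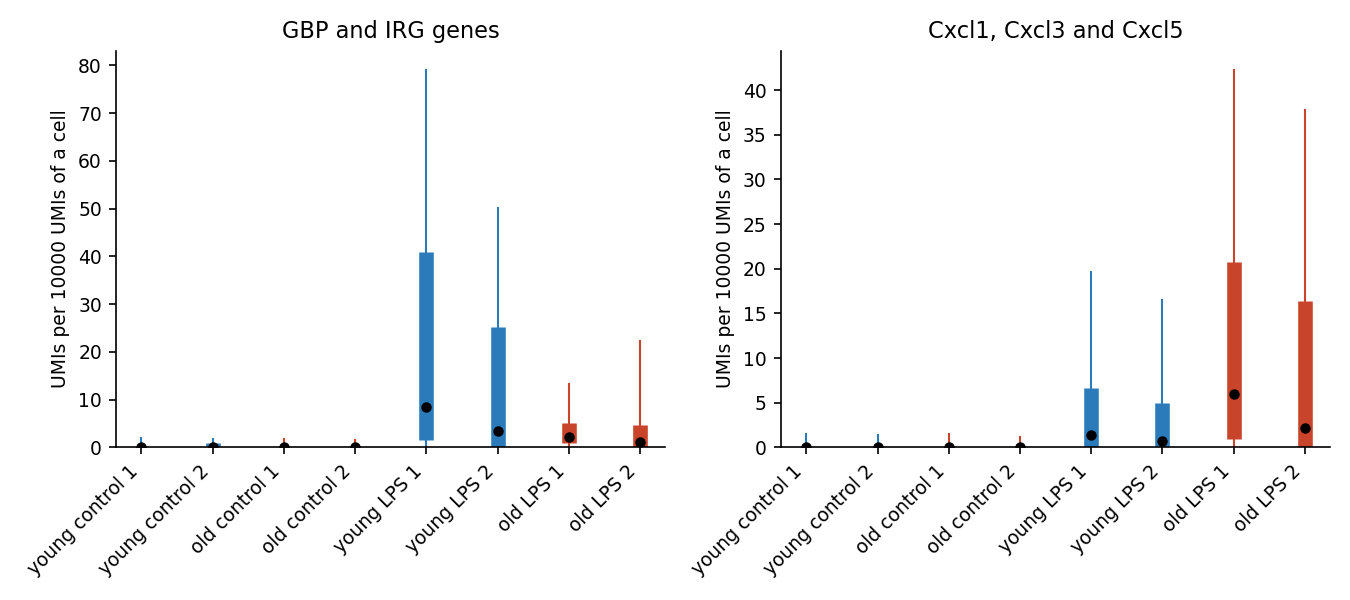
UMIs of the GBP and IRG genes (left) and of Cxcl1, Cxcl3 and Cxcl5 (right) per 10000 UMIs of a cell, in each library; the dot is the median cell, the bar runs from the 25th to the 75th percentile, and the thin line runs from the 10th to the 90th percentile. At the 90th percentile the GTPase genes reached 79.1 and 50.2 in young LPS libraries and 13.3 and 22.3 in old ones.

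The differences were not the same in every cell. The 17 GBP and IRG genes with a row in the tables took a median of 8.53 and 3.32 of every 10000 UMIs in young AE2 cells after LPS, and 2.20 and 1.11 in old ones. The absolute gap was wider at the upper end: the 75th percentile was 41.0 and 25.2 in young and 5.06 and 4.65 in old cells, and the 90th 79.1 and 50.2 against 13.3 and 22.3. The 10th percentile was 0 in all 4 libraries. For Cxcl1, Cxcl3 and Cxcl5 together the median was 1.36 and 0.757 in young and 5.98 and 2.21 in old, and the 90th percentile 19.6 and 16.5 against 42.3 and 37.8. Cells are not replicates, and an exact permutation test of 2 against 2 libraries cannot reach 0.05, so no test was made of these values.

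Thinning each AE2 cell to 2000 UMIs, which left out 1 and 2 young and 7 and 23 old cells with fewer, made shares of cells comparable. After thinning, 63.4% and 52.5% of young and 42.7% and 33.7% of old cells had a UMI of a GBP or IRG gene, against 7.52% to 9.72% of control cells. For the 3 chemokines the shares were 35.9% and 30.3% in young and 59.7% and 47.6% in old, against 4.84% to 6.03% of control cells. Of the cells with a GTPase UMI, 41.4% and 41.5% had a chemokine UMI as well in young libraries, and of the cells without one 26.2% and 18.0%. In old libraries the shares were 64.0% and 73.4%, against 56.6% and 34.5%. Cells with UMIs of both groups were thus present in all 4 libraries.

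By gene, Igtp was seen in 28.8% and 22.7% of young and 6.62% and 9.29% of old cells after thinning (53.6%, 46.5%, 21.6% and 23.9% unthinned). The exact 95% intervals of the thinned shares, which cover counting error only, were 25.7% to 32.1% in young LPS 1, 5.28% to 8.17% in old LPS 1 and 7.71% to 11.1% in old LPS 2. Cxcl1 was seen in 21.4% and 16.7% of young and 37.5% and 31.5% of old cells (37.7%, 32.3%, 50.1% and 46.3% unthinned), with intervals of 18.6% to 24.4%, 14.4% to 19.3%, 34.7% to 40.3% and 28.8% to 34.2%. For both genes the young and old intervals lay apart. Il33 was detected in 22.2% and 25.8% of young and 43.2% and 38.5% of old cells after LPS, and in 42.8% to 45.7% of control cells. Csf2 gave 10.5% and 14.0% in young and 31.4% and 20.2% in old. Ciliated cells of the same libraries (3 or more UMIs of the cilia genes, fewer than 3 of the AE2 markers, at least 2000 UMIs) gave the level in another cell type after the same thinning. Cxcl1 was seen in 0 of 82 young ciliated cells of lane 1, which allows a share of up to 3.66%, in 2.13% of those of lane 2, and in 2.50% and 1.20% of old ones. Their median UMI counts were 5698 and 6480 in young and 6169 and 6648 in old, from 82 and 47 young and 240 and 83 old cells. The share of AE2 cells with Cxcl1 was above this level in every LPS library. The interferon-inducible genes were found in ciliated cells as well: Irgm1 in 52.4% and 36.2% of young and 9.17% and 16.9% of old ciliated cells, and Tap1 in 42.7% and 29.8% against 7.08% and 8.43%.

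Genes known from the transitional state that AE2 cells pass through during repair were in part higher in old cells after LPS. Of 20 tested, 5 were higher and 1 lower, 17 had a positive sign, and the median log2 difference was 0.65. With Sftpc at 3% or more 1 of 20 was higher, and with cells thinned to 2000 UMIs 1 of 17. Krt18, a keratin of simple epithelia, was at 201 and 188 CPM in young and 288 and 236 CPM in old (0.43). Clu, the chaperone clusterin, was at 691 and 562 CPM in young and 1005 and 934 CPM in old (0.63). Ccnd1, cyclin D1, was at 65.5 and 67.8 CPM in young and 213 and 137 CPM in old (1.39). In controls Ccnd1 was at 114 and 149 CPM in young and 174 and 188 CPM in old (0.45, not called). Both young LPS libraries thus lay below the young controls, and the old LPS libraries lay on both sides of the old controls. Clu and Ccnd1 missed the threshold with the lane as a replicate block (adjusted p = 0.0664 and 0.0591). Hbegf, an epidermal growth factor receptor ligand (1.34), and Trp53, which encodes p53 (0.80), were higher too. Cdkn1a, the p21 cell cycle inhibitor that p53 induces, was lower at 119 and 115 CPM in young and 76.0 and 57.7 CPM in old (-0.81). The count of higher members was 0 without young LPS 1 or without young LPS 2, where each of the 6 named genes missed the threshold (adjusted p from 0.0578 to 0.341), and 12 without old LPS 2. Krt18, Clu and Trp53 also missed it without old LPS 1 (0.0896, 0.348 and 0.0896) and without 2 or more of the control libraries (0.0593 to 0.106). Clu missed it without old LPS 2 as well (0.128), so no fit that left out an LPS library kept its call.

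Single stress genes were called, beside 2.74% of all genes tested, and no test of the lists was made. Of 27 NRF2-related genes 3 were higher and 0 lower, with 15 positive and 12 negative. The 3 were Gclc, for glutathione synthesis (0.50), Nfe2l2, for NRF2 itself (0.40), and the metallothionein Mt2 (1.21). The median log2 difference of this list was 0.03. It was 0.09 for endoplasmic reticulum stress, 0.28 for heat shock chaperones, 0.19 for glycolysis and hypoxia, and 0.59 for the cell cycle. Hsp90ab1, an HSP90 chaperone, was at 453 and 430 CPM in young and 746 and 595 CPM in old (0.60, adjusted p = 0.00884). The endoplasmic reticulum chaperone Hspa5 (0.39) and Creld2 (0.53) were 2 of 24 in their list. Slc2a1, a glucose transporter (0.63), and Hif1a (0.49) were higher and Pfkfb3 lower (-1.28) among 17 genes of glycolysis and hypoxia. Myc was higher from a low level, 2.71 and 2.22 CPM in young against 15.6 and 6.40 CPM in old. Mcm3, a subunit of the replicative helicase, was the 1 of 15 cell cycle genes that passed, at 0.679 and 1.31 CPM in young and 7.11 and 3.29 CPM in old. These calls leaned on the young libraries: without young LPS 2, Gclc, Nfe2l2, Mt2, Hsp90ab1, Hspa5, Creld2, Slc2a1, Hif1a, Pfkfb3, Myc and Mcm3 missed the threshold (adjusted p from 0.0546 to 0.458), and without young LPS 1 the same genes other than Mt2 did (0.0864 to 0.261). Without old LPS 1, Nfe2l2 (0.0655), Slc2a1 (0.164), Hif1a (0.0962), Pfkfb3 (0.0639) and Mcm3 (0.052) missed it. Leaving out a control library ended the calls of Gclc, Nfe2l2, Hspa5, Creld2, Slc2a1, Hif1a and Myc in 2 or more cases (0.05 to 0.109).

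Single genes of lipid synthesis and of the AE1 list were called, beside 2.74% of all genes tested, but no surfactant gene outside the rule. The lists are too small to set their shares against that one. None of the 3 surfactant protein genes outside the rule was called (median -0.27): Sftpa1 was at 42057 and 38137 CPM in young and 26571 and 37014 CPM in old (-0.33, adjusted p = 0.211), and it was called lower without old LPS 2 (-0.60, adjusted p = 0.000115) or with no filter on low counts (-0.32, adjusted p = 0.00412). In the list of lamellar body and surfactant lipid genes 0 of 10 outside the rule passed. Lss, lanosterol synthase, was the 1 of 23 cholesterol synthesis genes called (-0.73), with 20 of 23 negative and a median of -0.28. Agpat2, which makes phosphatidic acid (-0.45), and Thrsp (-1.15) were lower among 26 fatty acid and phospholipid genes. The collagen IV genes Col4a3 (-1.07) and Col4a4 (-0.62), which lie in the AE1 list, were lower. Without young LPS 2 the calls of Lss (adjusted p = 0.288), Agpat2 (0.33), Thrsp (0.172) and Col4a4 (0.189) were lost, and without young LPS 1 those of Agpat2 (0.102), Thrsp (0.294), Col4a3 (0.102) and Col4a4 (0.218). Thrsp (0.175) and Col4a4 (0.0655) also missed the threshold without old LPS 1, and Lss, Agpat2, Thrsp and Col4a4 without 2 or more of the control libraries (0.05 to 0.0871). In 92 nuclear genes of oxidative phosphorylation (median -0.05) and in 77 cytosolic ribosomal protein genes (median 0.13) no member was called.

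Markers of most other cell types were few in the summed AE2 cells, but those of AE1 and club cells were not. The summed CPM of the 5 AE1 markers, most of it Ager, was 1401 and 1470 in young and 1214 and 1242 in old LPS libraries, and none of them was called. The summed CPM of the 6 club and secretory markers, most of it Scgb1a1, was 707 and 742 in young and 1204 and 1920 in old LPS libraries, and the part of such RNA in the results was not tested. Krt5 and Krt14 of basal cells, Cd3d, Cd3e and Cd3g of T cells, Marco and Siglecf of alveolar macrophages and all 3 mast cell and basophil markers were at 0 in the 4 LPS libraries. Gp9 of platelets was at 0 as well, and Ppbp of platelets had 2 UMIs in old LPS 2 and 0 in the other LPS libraries. Of the alveolar macrophage list only Cd68 was called, lower in old (52.4 and 43.1 CPM in young, 29.4 and 34.5 CPM in old). Pf4, a chemokine gene and the only 1 of the 3 platelet markers that was tested, was higher in old (125 and 135 CPM in young, 208 and 169 CPM in old). Neither was called without young LPS 1 (adjusted p = 0.322 and 0.214) or young LPS 2 (0.0747 and 0.122), nor without several of the control libraries (0.05 to 0.0713). Igkc and Ighm, antibody genes, gave most of the 1158 CPM of plasma cell markers in old control 1, against 0.814 to 4.53 CPM in the other libraries.

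**Figure D4:**
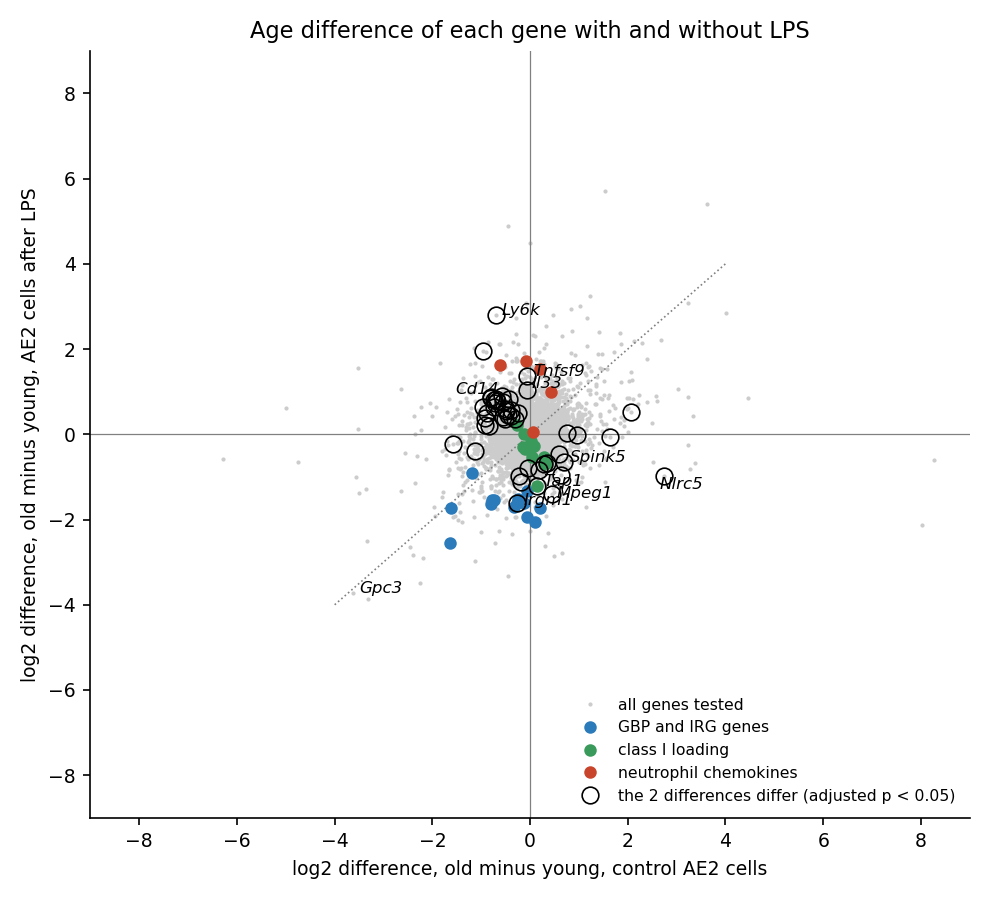
Log2 difference between old and young AE2 cells of each tested gene in controls (horizontal) and after LPS (vertical); grey points are all genes tested, colours mark GBP and IRG genes, class I loading genes and neutrophil chemokines, and black rings mark the 47 genes whose 2 differences differ. Irgm1 lies at -0.26 in controls and -1.62 after LPS, and Il33 at -0.07 and 1.04.

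The difference between ages was tested for being different with and without LPS. In control AE2 cells 51 genes (0.449%) differed by age, and 18 of these were among the 311 genes called after LPS, 35.3% of the first list and 5.79% of the second; the 2 comparisons share no library, but they share 1 fit. The 2 differences differed for 47 genes (0.414%), 30 (0.264%) with a higher and 17 (0.150%) with a lower value after LPS. This count rests on few libraries. It was 0 in both directions without old control 1, 1 and 0 without young control 2, 7 and 1 without young control 1, 12 and 11 without old control 2, 19 and 6 without young LPS 1, 13 and 15 without young LPS 2, 67 and 59 without old LPS 1, and 399 and 541 without old LPS 2. In the edgeR fit of all libraries 1088 genes (9.59%) had an unadjusted interaction p under 0.05, and DESeq2 on the same libraries called 33 and 23. Both include old control 1, so neither bears on the fits that left a library out.

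Of the interferon genes, Irgm1 (interaction log2 -1.37, adjusted p = 0.0262), Irf1 (-0.92, adjusted p = 0.0235), Tap1 (-1.36, adjusted p = 0.00781), Psmb8 (-0.98, adjusted p = 0.0191) and Psmb9 (-1.01, adjusted p = 0.0319) had a lower age difference after LPS than in controls. In controls the log2 difference was -0.26 for Irgm1, -0.19 for Irf1, 0.15 for Tap1, 0.28 for Psmb8 and 0.35 for Psmb9, none of them called. Mpeg1 showed the same (-1.84, adjusted p = 0.00781), at 4.34 and 5.18 CPM in young and 6.39 and 6.90 CPM in old controls. Igtp (-1.87, adjusted p = 0.190) and Gbp2 (-1.39, adjusted p = 0.409) did not pass, on control levels under 8 CPM. Nlrc5 was higher in old controls (0.241 and 0.265 against 2.02 and 1.63 CPM) and lower in old cells after LPS (14.1 and 13.9 against 6.92 and 7.23 CPM). B2m was at 180 and 195 CPM in young and 377 and 359 CPM in old controls, and the difference after LPS was lower than that (interaction log2 -0.98, adjusted p = 0.0121). H2-Q6 showed the same form, from 5.30 and 4.38 CPM in young and 16.0 and 13.7 CPM in old controls to overlapping groups after LPS (-1.70, adjusted p = 0.00781).

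In the other direction, Il33 (1.12, adjusted p = 0.00781) and Tnfsf9 (1.42, adjusted p = 0.0108) were called after LPS and not in controls. Cd14 (1.63), Clu (1.36), Hsp90ab1 (1.10) and Krt18 (0.82) had lower means in old than in young controls, without a call there, and were higher in old after LPS. Socs3 and Bhlhe40, a repressor of the circadian and stress responses, were called in both: lower in old controls (-0.89 and -0.74) and higher in old cells after LPS (0.49 and 0.80). Ly6k (3.49), Rhou (1.53), and the transcription factor gene Sp5 (1.27) had interactions of the same sign. Spink5, a protease inhibitor gene, was higher in old controls (0.70) and lower in old cells after LPS (-0.65). After LPS, Bhlhe40 (adjusted p = 0.102), Sp5 (0.0765) and Spink5 (0.101) lost their calls without young LPS 1, and Spink5 (0.0836) and Rhou (0.0803) without young LPS 2. The neutrophil chemokines did not pass this test, with adjusted p = 0.0574 for Cxcl3 and 0.0955 for Cxcl1.

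**Figure D5:**
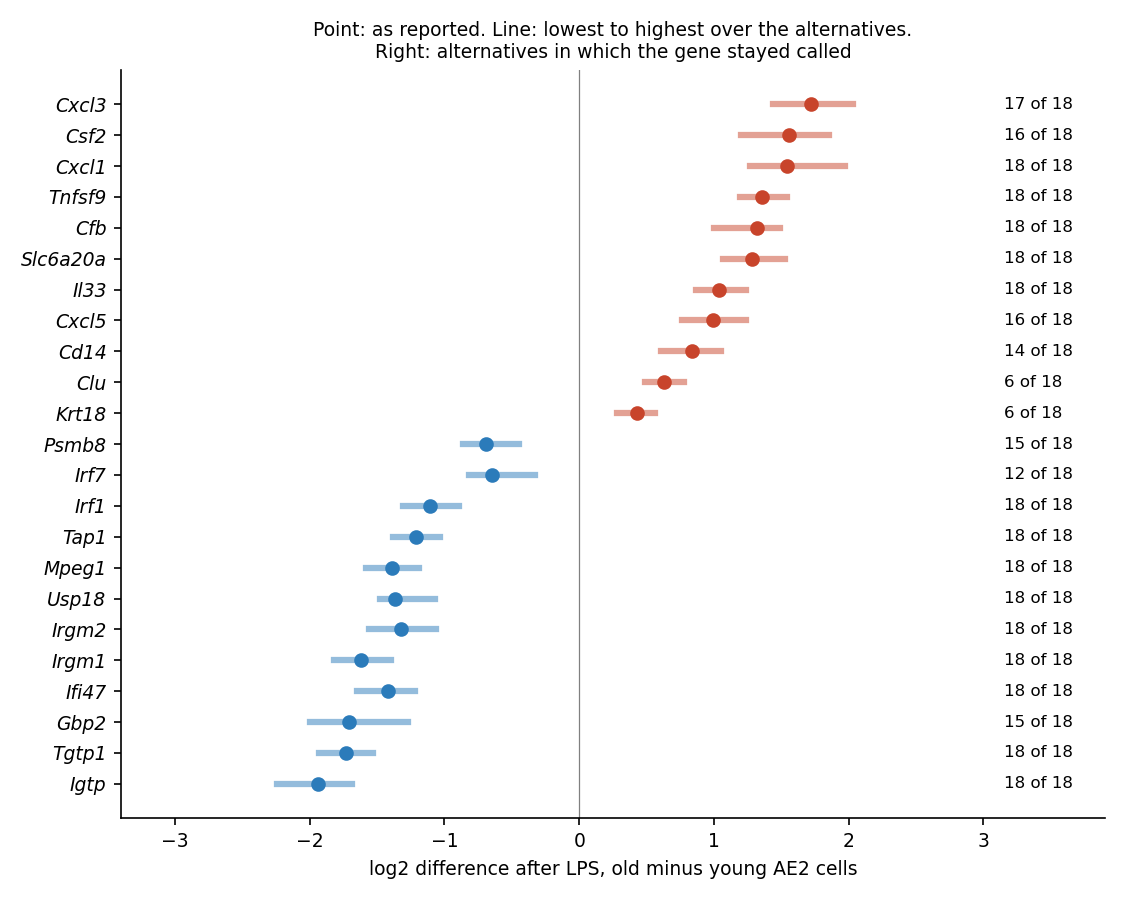
Log2 difference after LPS (old minus young) of 23 genes; the point is the value as reported, the line runs from the lowest to the highest value over 18 alternative settings, and the number at the right counts the settings in which the gene stayed called. No line crosses 0, which was largely fixed beforehand, since the 2 groups did not overlap for these called genes. Igtp stayed between -2.24 and -1.69 and Cxcl1 between 1.27 and 1.97.

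Some genes passed under all 18 alternative settings, and these were named after their values were seen. The 6 higher ones were Cfb, Cxcl1, Il33, Slc6a20a, Tgfbi and Tnfsf9. The 18 lower ones included Ifi47, Igtp, Irf1, Irgm1, Irgm2, Mpeg1, Tap1, Tgtp1, Usp18 and 9930111J21Rik2, a predicted GTPase gene, of the interferon group. Others were Cirbp, Dhrs7, Fgfbp1, Gpc3, Myom1, Tspan8 and Tuba8. Gpc3, the heparan sulfate proteoglycan glypican 3, was at 14.8 and 15.2 CPM in young and 1.33 and 0.915 CPM in old after LPS (-3.72 ± 0.27, adjusted p = 4.87e-06), and at 6.51 and 4.51 against 0.467 and 0.376 CPM in controls (-3.62), with an interaction of -0.11 ± 0.92 (SE, adjusted p = 0.986). Slc6a20a, a proline transporter gene, was higher in old in both states (1.28 after LPS and 2.08 in controls), and Tspan8, a tetraspanin gene, lower in both (-0.97 and -1.40). Cirbp, a cold-inducible RNA-binding protein gene, was at 163 and 177 CPM in young and 92.5 and 80.4 CPM in old after LPS (-0.98 ± 0.10, adjusted p = 7.51e-05) and at 111 and 112 against 97.2 and 94.1 CPM in controls.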

How the data were processed

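Each library came as a table of raw UMI counts per gene and barcode, as deposited by the authors, with 4 hashtag rows that were left out. Per the submitters' processing notes the tables rest on Cell Ranger 3.1.0 and mm10 (GRCm38). How barcodes were given to hashtags and how doublets were treated is not given in the sources used here, and no doublet caller was run; leaving out the 5% of cells with the most UMIs is an alternative. UMIs were summed per library over the AE2 cells and tested with edgeR 4.0.16 in R 4.3.3 (TMM scaling, filterByExpr, robust quasi-likelihood fit of 8 libraries in 4 groups, 4 residual degrees of freedom). Benjamini-Hochberg adjustment ran over 11347 genes with a threshold of 0.05, for the age difference after LPS, in controls, and for the difference between them. The standard error is the log2 difference divided by the square root of F. The alternatives included DESeq2 1.42.0, other filters and Sftpc minimums, thinned cells and leaving out each library.

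Per the labels, each lane was a separate run of the whole experiment, so the lane pairs the libraries; same-lane deviations correlated at -0.00248 to 0.146 between groups. The fit with the lane as a block is an alternative. P-values measure the spread between libraries only. The cells, lists and tests were chosen with earlier results of these data known. Genes were named by size (the largest called differences at 20 CPM or more), as the most abundant called members of each list, by the smallest interaction p-values, and as markers of other cells. Tap1, Tap2, Stat2, Nlrc5, Ciita, Gbp6, Gbp9, Tnf, Hbegf, B2m, Cxcl2, Nfkbia, Dhrs7, Cirbp and the genes that passed under every setting were added after their values were seen. Gene coordinates are from GENCODE M21 and promoters from RefSeq, both on GRCm38. Some items are not reported here.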

Additional observations from a re-analysis of the deposited data

Results flagged for a closer look

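A test of the difference itself called 47 of 11347 genes (0.414%) whose age difference was not the same after LPS as in controls (edgeR interaction, Benjamini-Hochberg). Of these, 26 are among the genes named in this report and are listed here. The interaction is the log2 difference between old and young after LPS minus that in controls. Positive values were found for Ly6k (3.49), Cd14 (1.63), Bhlhe40 (1.54), Rhou (1.53), Tnfsf9 (1.42), Socs3 (1.38), Clu (1.36), Sp5 (1.27), Il33 (1.12), Hsp90ab1 (1.10), Ptpn2 (1.05), Slc26a9 (0.91), Krt18 (0.82) and Gclc (0.74). Negative values were found for Dhrs7 (-0.75), Cirbp (-0.75), Irf1 (-0.92), Psmb8 (-0.98), B2m (-0.98), Psmb9 (-1.01), Spink5 (-1.34), Tap1 (-1.36), Irgm1 (-1.37), H2-Q6 (-1.70), Mpeg1 (-1.84) and Nlrc5 (-3.72). Slc26a9, an ion transporter gene, was higher in old after LPS (log2 difference 0.46, adjusted p = 0.0388) and kept that call in 6 of 18 alternative settings; it lost it without any 1 library other than old LPS 2, with adjusted p from 0.0634 to 0.301. Nlrc5, Spink5, Socs3 and Bhlhe40 were called in opposite directions in the 2 states. The calls of these 26 interactions depended on single libraries, the control libraries above all, as given above for the whole count.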

How the results depend on the processing

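After LPS, 136 genes were higher and 175 lower in old cells. These counts became 71 and 97 with the DESeq2 Wald test, 399 and 377 with no filter on low counts, 25 and 47 with the 4 LPS libraries fitted alone, 18 and 36 with Sftpc at 3% or more, 189 and 265 with no Sftpc minimum, and 35 and 44 with cells thinned to 2000 UMIs. They ran from 20 to 860 and from 45 to 992 when 1 library was left out. In controls, 20 were higher and 31 lower. These became 16 and 20 with the DESeq2 Wald test, 94 and 112 with no filter, 8 and 12 at 10 CPM or more, 136 and 190 with the 4 control libraries alone, 6 and 7 with Sftpc at 3% or more, 11 and 16 without the 5% of cells with the most UMIs, and 7 and 9 after thinning, and ran from 4 to 120 and from 5 to 148 without 1 library. The 30 and 17 interactions became 140 and 116 with no filter, 0 and 0 with Sftpc at 3% or more, 40 and 36 with no Sftpc minimum, 19 and 11 without the 5% of cells with the most UMIs, 7 and 3 after thinning, and ran from 0 to 399 and from 0 to 541 without 1 library. The cause of these shifts was not tested; stricter filters, thinning and fewer libraries also test fewer genes or rest on less data.

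With the lane as a replicate block (paired libraries), 198 genes were higher and 223 lower after LPS, 21 and 35 in controls, and 44 and 22 had an interaction. Among the genes named, this block changed the calls of Ccnd1, Clu, Socs1, Cxcl2 and Nfkbia, given above, and no other. Of the 99 genes named, 61 lost their call with Sftpc at 3% or more and 50 with the 4 LPS libraries fitted alone. After thinning to 2000 UMIs, 46 of 97 lost it. These totals include genes without a call to lose, among them Cxcl2, Nfkbia, B2m, Lcn2, Sftpa1 and H2-Q6. Among the genes named, signs turned under the settings run only for 3 that were not called: Lcn2 at 0.00 (Sftpc at 3% or more) and 0.17 (without old LPS 2; -0.41 without old LPS 1), B2m at 0.00 (no filter), 0.11 (Sftpc at 3% or more), 0.02 (without the 5% of cells with the most UMIs), 0.03 (thinned), 0.17 (without young LPS 1) and 0.07 (without old LPS 1; -0.17 without young LPS 2), and H2-Q6 at 0.15 (Sftpc at 3% or more), 0.04 (thinned), 0.01 (without young LPS 1) and 0.11 (without old LPS 1; -0.27 without old LPS 2). With 2 libraries per group the spread of a group rests on a single difference, and the 2 old LPS libraries hold more UMIs than the young ones.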
